A study of Rattus norvegicus with 12 samples.

Results

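The 6 arrays of injured (Rice) cortex in this rat series, of 12 arrays in all, were ordered by how much neuronal transcript each one still held, and all other genes were read against that order. The order was selected on 4 measured genes. For each array a neuronal score was taken as the mean log2 signal, over the array's 75th percentile, of Nefm and Nefh (the medium and heavy neurofilament subunits of the axonal cytoskeleton), Map2 (a microtubule-associated protein of dendrites) and Vamp2 (the synaptic vesicle SNARE), using the brightest probe of each. Score and genes were compared within each treatment group, saline or MCI-186, so a difference between treatments or between slides does not enter. The labels give 3 pups per condition and no litters, and p-values measure the spread between these samples.

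Wistar pups of the Rice group had the left carotid artery cut between ligatures at 7 days of age and then breathed 8% oxygen for 1 h. Of these, 3 received 100 µl of saline and 3 received MCI-186 (edaravone, a free radical scavenger) at 9 mg/kg, into the abdomen and again after 30 min. Control pups had no ligation and no hypoxia and received the same injections, 3 with saline and 3 with MCI-186. Cortex of the operated side, or of the same side in controls, was taken at 2 weeks of age by the labels, and total RNA was hybridised to 1-colour arrays. Between 69.3% and 73.7% of the spots of the 6 injured arrays were well above background. All 3 arrays of a group lay on 1 slide read in 1 scan session, so slide and group cannot be told apart between groups, while comparisons within a group lie within 1 slide. The 75th percentile of signal correlated with the score over the 6 arrays with r = 0.27 (exact permutation p = 0.722) and rho = 0.37 (exact p = 0.583), and r was 0.28 without the 2 arrays of most extreme score. For the share of spots above background r was -0.35 (exact permutation p = 0.694), rho was -0.54 (exact p = 0.361) and r without those 2 arrays was -0.24.

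Neonatal hypoxia-ischemia kills cortical neurons, and the dead cells and their synapses are cleared by microglia and by macrophages from blood, while astrocytes around the lesion enlarge and divide. Complement proteins tag synapses and debris for uptake, and type I interferon genes are switched on in myeloid cells and astrocytes after brain injury. In whole tissue, fewer neurons and less RNA per neuron cannot be told apart, and the same holds for every other cell type below.

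The score lay in a narrow range in controls and a wide one in injured cortex. It was 3.43, 3.58 and 3.60 log2 units in control saline pups and 3.53, 3.56 and 3.43 in control MCI-186 pups. In injured saline pups it was 2.63, 2.33 and 1.93 for replicates 1, 2 and 3 (2.30 ± 0.35, SD, n = 3), and in injured MCI-186 pups 2.07, 2.78 and 2.15 (2.33 ± 0.39, SD, n = 3). Saline replicate 1 and MCI-186 replicate 2 held most neuronal transcript, saline replicate 3 and MCI-186 replicate 1 held least, and no injured array reached a control. The SD within groups was 0.37 in injured and 0.08 in control arrays, a ratio of 4.57. These values chose the order and are given as a description, with no test.

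**Figure D1:**
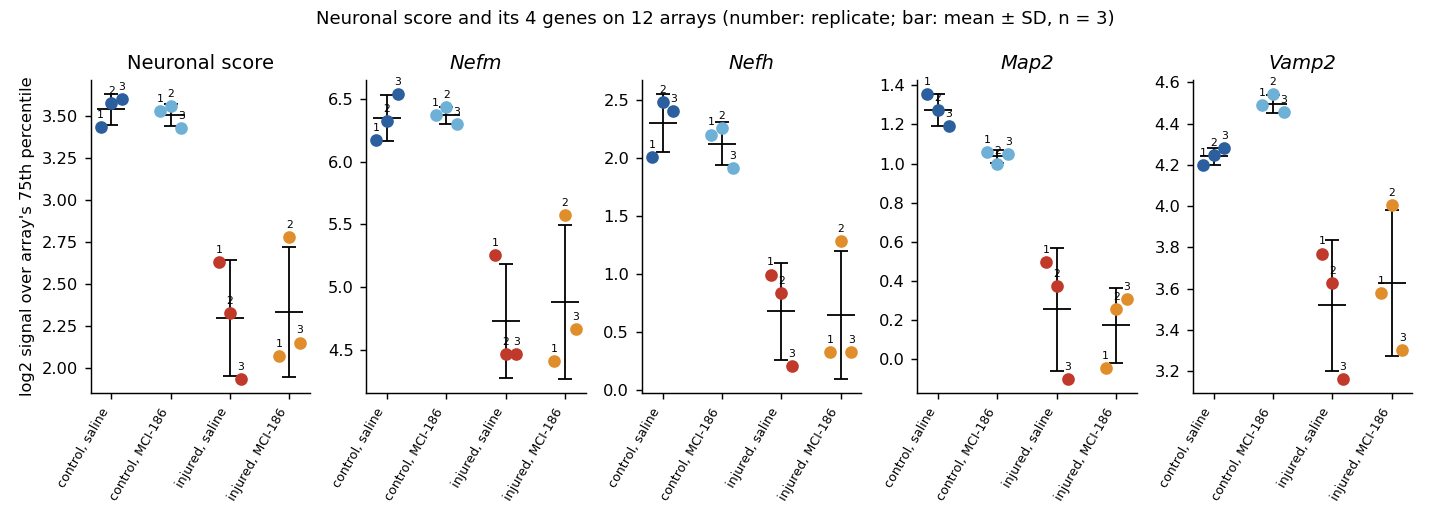
Log2 signal over the array's 75th percentile (y axis) of the neuronal score and its 4 genes in the 4 groups (x axis, 3 arrays each); points are arrays, numbers are replicates and bars are mean ± SD. Injured arrays spread from 1.93 to 2.78 on the score and control arrays from 3.43 to 3.60.

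The 4 genes did not give quite the same order. Nefm read 5.25, 4.47 and 4.47 in injured saline replicates 1, 2 and 3 and 4.41, 5.57 and 4.66 in injured MCI-186 replicates 1, 2 and 3, against 6.17 to 6.54 in controls. Nefh read 1.00, 0.84 and 0.21 with saline and 0.33, 1.29 and 0.33 with MCI-186, and Vamp2 read 3.77, 3.63 and 3.16 and then 3.58, 4.00 and 3.30. Map2 read 0.49, 0.37 and -0.10 with saline and -0.04, 0.25 and 0.31 with MCI-186, so that MCI-186 replicate 2 was not its highest array in that group. After centring within groups, Pearson's r between pairs of these genes over the 6 arrays ran from 0.56 (Map2 with Vamp2) to 0.95 (Nefh with Vamp2). A further probe of Vamp2 had a slope of -0.55 on the score and a further probe of Map2 a slope of -0.21.

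For every other gene the slope on the score was fitted with limma over the 6 injured arrays, with treatment as a term. A slope is the log2 difference per 1 log2 unit less neuronal score. A positive slope means a higher level where less neuronal transcript was left. Every level is relative to a percentile of the same array's signal. Whether a positive slope is a larger amount or only a larger share of the array's signal was therefore not tested for any list below. Of 9274 named genes tested beside 16610 unnamed probes, 0 passed limma's Benjamini-Hochberg adjusted threshold of 0.05 with a positive slope (0%) and 0 with a negative slope (0%). The smallest adjusted p was 0.0676. At an unadjusted limma p under 0.05 there were 1825 positive slopes (19.7% of genes) and 1241 negative slopes (13.4%), and these shares are the background for every list below. With the 6 controls added to the limma fit to estimate the spread, 1250 genes passed the adjusted threshold with a positive slope (13.5%) and 952 with a negative slope (10.3%). The controls add nothing to the slope itself. Their median residual SD was 0.134, against 0.153 in injured arrays, so this fit may understate the error of slopes among injured arrays. Leaving out injured MCI-186 replicate 2, the array with the highest score, left 787 positive and 396 negative slopes at an unadjusted p under 0.05. Without injured saline replicate 3 the counts were 1012 and 717, and without injured saline replicate 1 there were 791 negative ones. Slopes of single genes are therefore given with their standard error as measured values, and none is called changed.

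A single axis took up 53.1% of the variance of all genes among the 6 injured arrays after centring within groups, and its Pearson correlation with the score was 0.93. The axis was computed from the same arrays, so this is a description. The median slope over all genes was 0.04, with quartiles of -0.29 and 0.41, and 52.8% of the slopes were positive. The slope had the same sign in the saline arrays alone and the MCI-186 arrays alone for 78.4% of genes. Across genes, which are not independent replicates, the slopes of the 2 treatment groups correlated with r = 0.64. In limma's test of the difference between these slopes 0 genes (0%) passed the adjusted threshold, with 230 genes (2.48%) at an unadjusted p under 0.05 and a smallest adjusted p of 0.742.

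Among the genes lower where the score was lower, the 5 whose level lay closest to a straight line on the score were Lrtm2 (a leucine-rich repeat membrane protein), Jph3 (a junctophilin that ties neuronal plasma membrane to endoplasmic reticulum), Akap6 (an anchor for protein kinase A), Mark1 (a kinase of microtubule-associated proteins) and Dnajc5 (cysteine string protein, a synaptic vesicle chaperone). Dnajc5 read -2.16, -2.31 and -2.56 in saline replicates 1, 2 and 3 and -2.43, -2.04 and -2.42 in MCI-186 replicates 1, 2 and 3, all below the control range of -1.82 to -1.55. Jph3 read 4.38, 4.10 and 3.74 with saline and 3.89, 4.59 and 3.92 with MCI-186, against 5.11 to 5.30 in controls. In both genes the order of the arrays within each treatment group was that of the score. With r taken against a falling score, as for the slope, the 5 values of Pearson's r lay between -0.998 and -0.997 over 6 arrays, each with rho = -1 and an exact permutation p of 0.0278 for r and for rho. This is the smallest p that 36 arrangements within treatment groups allow. Without the 2 arrays of most extreme score r lay between -0.999 and -0.986. Because 9267 such correlations were computed and 778 genes reached that smallest p, the smallest Benjamini-Hochberg adjusted exact p was 0.248.

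Ordered by limma's p instead, the 10 leading negative slopes (adjusted p = 0.0676 for each, limma, n = 6 arrays) held several neuronal genes. Slc24a2, a potassium-dependent sodium/calcium exchanger of neurons, read 0.84, 0.30 and -0.09 with saline and -0.44, 0.67 and -0.25 with MCI-186, a slope of -1.43 ± 0.16 (SE). Arc, the activity-regulated cytoskeletal protein of dendrites, read 3.08, 2.17 and 1.87 and then 2.08, 3.54 and 2.02, a slope of -1.97 ± 0.27. Controls read 2.79 to 3.47 with saline and 4.66 to 5.01 with MCI-186, so saline replicate 1 lay within the range of its own controls and every injured MCI-186 array lay below all of its own. Tac3 (neurokinin B) had a slope of -1.11 ± 0.15, Egr4 (an activity-induced transcription factor) of -1.54 ± 0.21 and Kcnh1 (the ether-a-go-go potassium channel) of -1.33 ± 0.19. Also among them were Prss22 (-2.02 ± 0.26), C4bpa (-1.60 ± 0.20), Pmfbp1 (-1.19 ± 0.16) and the olfactory receptor gene Or4b1 (-1.08 ± 0.15), of which Or4b1 showed no difference between injured and control arrays past the limma threshold (adjusted p = 0.76, difference -0.07 ± 0.19).

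**Figure D2:**
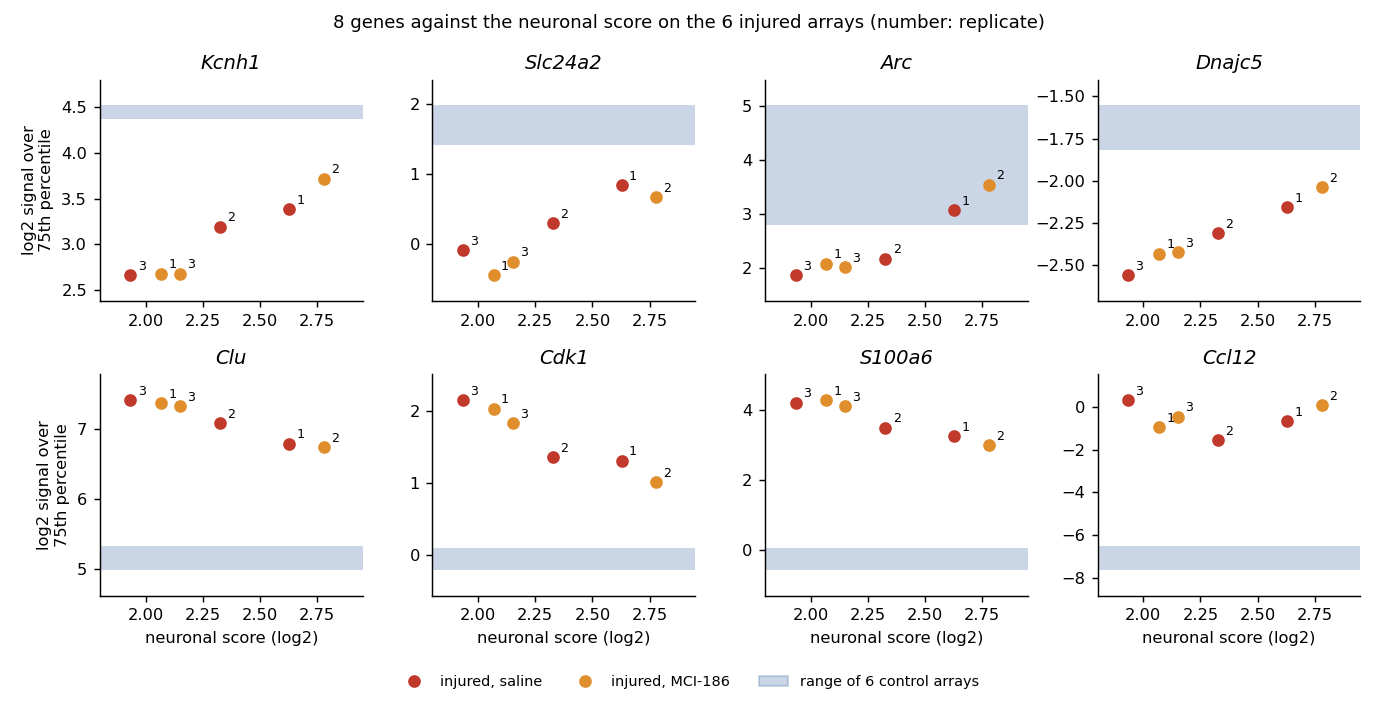
Log2 signal over the array's 75th percentile (y axis) of 8 genes against the neuronal score (x axis, log2 units) on the 6 injured arrays, with replicate numbers; the band is the range of the 6 control arrays. Kcnh1, Slc24a2, Arc and Dnajc5 are lower at a low score, Clu, Cdk1 and S100a6 are higher there, and Ccl12 has a slope of 0.03.

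The 8 lists of neuronal genes outside the score held 151 genes tested, of which 143 had a negative slope and 101 were at an unadjusted p under 0.05 with a negative slope, against 13.4% of all genes. Their median slope was -0.84. With the controls in the fit 85 passed the adjusted threshold with a negative slope and 0 with a positive one. The 8 genes with a positive slope included Calb2, Kcna2, Neurod1, Nr4a2, Nr4a3, Slc17a6 and Syngr1. Since the score was built from neuronal genes and the lists were compiled with earlier results of these data known, these counts describe the breadth of the pattern and are not independent evidence of its direction.

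The presynaptic list had the lowest median slope of the 8. Of its 24 genes for vesicle proteins and release machinery, 22 were at an unadjusted p under 0.05 with a negative slope (median -0.97; -0.98 in saline and -0.99 in MCI-186 arrays). Its mean log2 level was 0.43, 0.24 and -0.23 in injured saline replicates 1, 2 and 3 and -0.03, 0.56 and -0.20 in injured MCI-186 replicates 1, 2 and 3, and lay between 1.08 and 1.15 in all 6 controls. Snap25, the plasma membrane SNARE, read 4.52, 4.06 and 3.77 with saline and 3.81, 4.54 and 3.70 with MCI-186 (slope -1.10 ± 0.18). Cplx1 (complexin 1, a clamp on the SNARE complex) had a slope of -1.27 ± 0.21 and Syt2 (a fast calcium sensor) of -1.87, the lowest of the list, while Syngr1, a vesicle membrane protein, was at 0.02.

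Of 17 further genes of the neuronal cytoskeleton, 11 were at an unadjusted p under 0.05 with a negative slope and all 17 slopes were negative (median -0.77). Nefl, the light neurofilament subunit, read 3.27, 2.52 and 2.29 with saline and 2.17, 3.31 and 2.64 with MCI-186, against 4.17 to 4.34 in controls, with a slope of -1.40 ± 0.25. The smallest slopes of the list belonged to Dpysl2 (-0.34), Stmn2 (-0.35), Map1b (-0.37) and Gap43 (-0.41), proteins of growing axons. Among pan-neuronal genes 8 of 15 were at that threshold (median -0.56), among them Thy1, a neuronal surface protein (-0.94 ± 0.15), and Uchl1, a deubiquitinase (-0.84 ± 0.20).

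Excitatory and inhibitory neurons had similar medians, and the difference between the lists was not tested. Of 17 genes of excitatory neurons and cortical layers, 10 were at an unadjusted p under 0.05 with a negative slope (median -0.90). Slc17a7, the vesicular glutamate transporter of cortical projection neurons, had a slope of -1.23, and Rasgrf2, a gene of upper layers, of -1.81 ± 0.36. Neurod1, a factor of immature neurons, was at 0.78 ± 0.66. Of 13 inhibitory neuron genes 8 were at that threshold (median -0.74). Npy, a neuropeptide, read 4.70, 4.68 and 4.12 with saline and 3.66, 4.58 and 3.75 with MCI-186 (slope -1.11 ± 0.20). Saline replicates 1 and 2 and MCI-186 replicate 2 lay inside the control range of 4.33 to 4.80. Slc32a1, the vesicular GABA transporter, had a slope of -0.77 ± 0.16, Gad1 and Gad2, which make GABA, of -0.74 and -1.18. Calb2 and Reln were at 0.03 and -0.06.

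Of 25 voltage-gated channel genes, 19 were at an unadjusted p under 0.05 with a negative slope (median -0.92). Among the lowest p were those of Kcnh1, Scn1a (-1.36 ± 0.22) and Cacna1a (-1.02 ± 0.17). All 21 glutamate and GABA receptor genes had a negative slope and 13 were at that threshold (median -0.92). Gabrd, an extrasynaptic GABA receptor subunit, read 2.50, 2.42 and 1.61 with saline and 1.88, 3.03 and 1.50 with MCI-186 (slope -1.65 ± 0.32). Among 19 activity-regulated genes 10 were at that threshold (median -0.67), with Npas4 at -1.85, Nr4a1 at -1.52 ± 0.27 and Dusp1 at -1.68 ± 0.30. Fos and Jun were at -0.27 and -0.10. The mean level of this list also differed between the control slides, from 0.34 to 0.76 in control saline pups and from 1.31 to 1.43 in control MCI-186 pups.

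**Figure D3:**
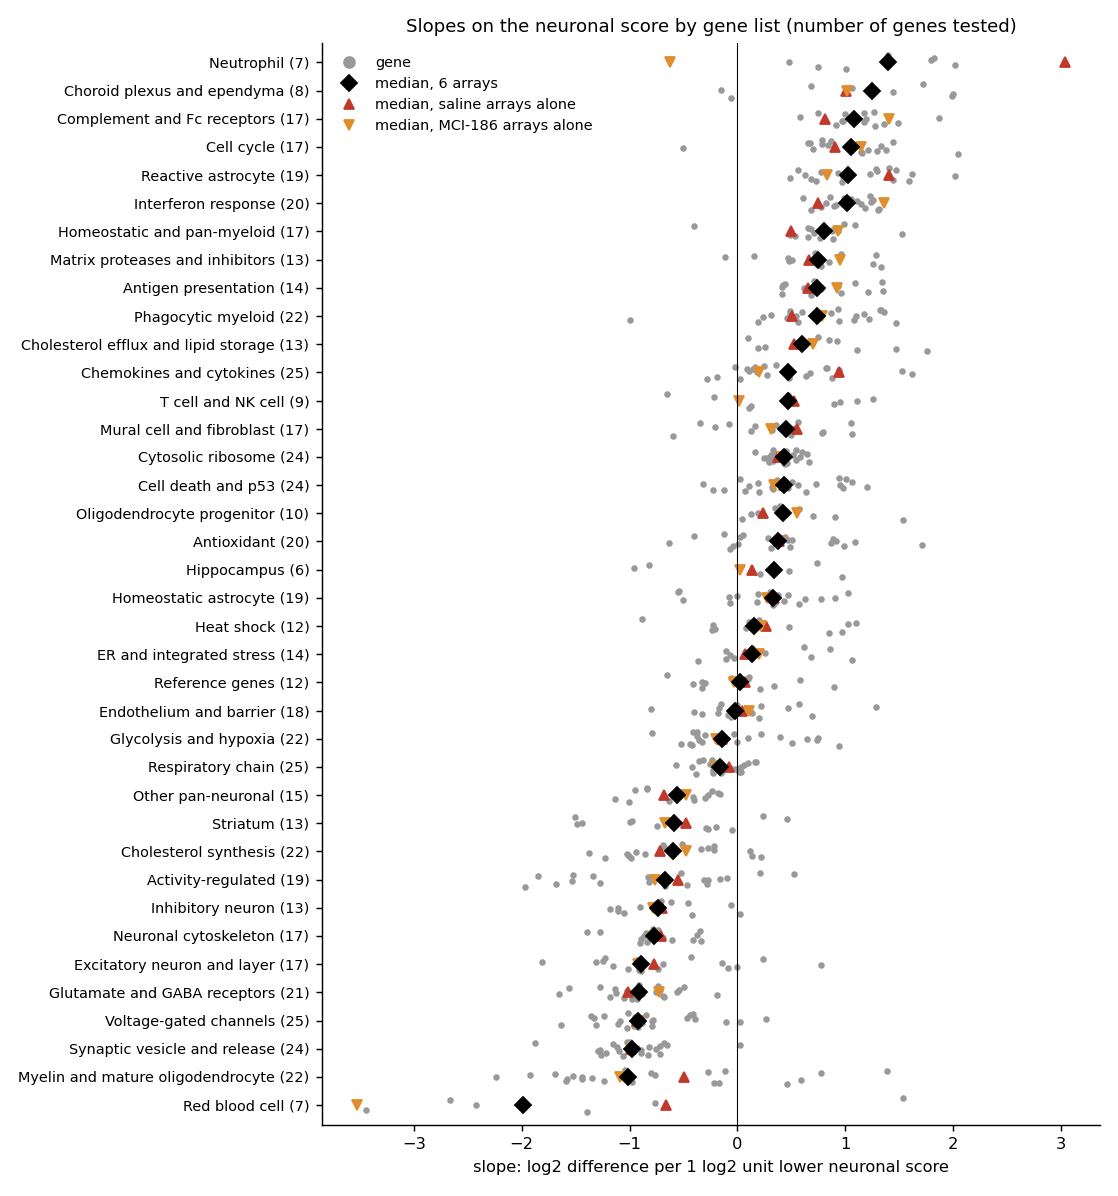
Slope on the neuronal score (x axis, log2 difference per 1 log2 unit lower score) of the members of 38 gene lists (y axis, number of genes tested in brackets); grey points are genes, diamonds are list medians over 6 arrays and triangles are medians in each treatment group alone. The 8 neuronal lists have medians from -0.97 to -0.56, and the medians of the complement, interferon, reactive astrocyte and cell cycle lists lie between 1.02 and 1.08.

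Of 22 myelin and mature oligodendrocyte genes, 11 were at an unadjusted p under 0.05 with a negative slope and 3 with a positive one (median -1.01, or -0.48 without MCI-186 replicate 2). Mal and Mog, of the compact myelin sheath and its outer surface, had slopes of -2.24 and -1.92, and Mbp (myelin basic protein) of -1.44. The saline arrays did not follow the order of the score in this list. Its mean was 1.24, 0.67 and 0.92 in saline replicates 1, 2 and 3 and 0.21, 0.87 and 0.05 in MCI-186 replicates 1, 2 and 3, and its median slope was -0.49 in saline and -1.09 in MCI-186 arrays. Tf (transferrin), which oligodendrocytes and choroid plexus both make, had a slope of 1.39 ± 0.21. Control slides also differed in this list, with means of 0.86 to 1.09 in saline and 1.50 to 1.74 in MCI-186 pups.

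Cholesterol synthesis genes lay with the neuronal lists: 13 of 22 were at an unadjusted p under 0.05 with a negative slope and 0 with a positive one (median -0.60, or -0.39 without saline replicate 1). Insig1, the sterol-sensitive regulator of the pathway, had a slope of -0.94 ± 0.22, Cyp51 (a demethylase of the sterol ring) of -1.22 ± 0.31 and Hmgcs1, which makes HMG-CoA in the cytosol, of -1.03 ± 0.27. Of 13 genes for cholesterol efflux and lipid storage 9 were at an unadjusted p under 0.05 with a positive slope (median 0.60). The lowest p belonged to the exporters Abca1 (1.76 ± 0.28) and Abcg1 (1.11 ± 0.23) and the apolipoprotein Apoc1 (1.47 ± 0.25).

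Markers of striatum were read because tissue beside the cortex could be present. Of 13 such genes 7 were at an unadjusted p under 0.05 with a negative slope (median -0.59). Rasd2 had a slope of -1.50 ± 0.22 and Pde10a, a phosphodiesterase of striatal projection neurons, of -0.99 ± 0.21. The list mean was -0.28, -0.31 and -0.62 in injured saline and -0.72, -0.26 and -0.74 in injured MCI-186 replicates 1, 2 and 3, and between 0.27 and 0.38 in controls. Hippocampal markers had a median of 0.34 over 6 genes, with 0 positive and 2 negative at that threshold. That median turned to -0.06 without injured saline replicate 1 and to -0.36 with the replicate number as a block. The part of both regions in the neuronal slopes was not tested.

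Red blood cell genes had the lowest median of all 38 lists, -1.98 over 7 genes, and MCI-186 replicate 2 weighed heavily on it. The list mean was 1.33, 1.47 and 1.06 with saline and 0.41, 2.18 and 0.55 with MCI-186. The median slope was -0.66 in saline and -3.52 in MCI-186 arrays; without MCI-186 replicate 2 it was -0.62. Alas2, the first enzyme of heme synthesis in red cell precursors, read 2.75, 2.71 and 1.35 with saline and 1.00, 4.01 and 0.84 with MCI-186. Control means ran from 0.87 to 2.11 with saline and from -0.14 to 0.52 with MCI-186, so this list varied between controls as well. The part of blood in the other slopes was not tested.

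**Figure D4:**
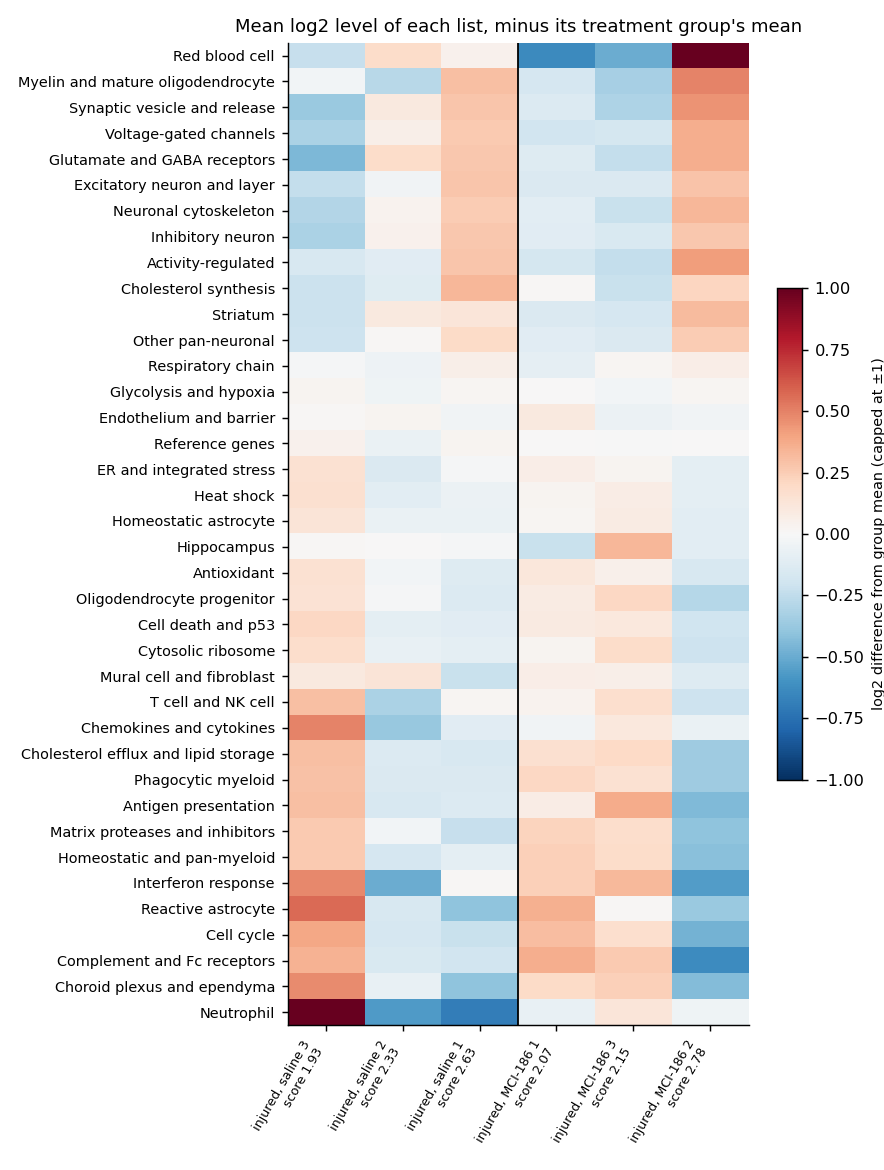
Mean log2 level of the members tested of each of 38 lists (rows) on the 6 injured arrays (columns, ordered by neuronal score within each treatment group), minus the treatment group's mean; colours are capped at 1 log2 unit on either side. Neuronal lists are low on saline replicate 3 and on MCI-186 replicates 1 and 3. Myeloid, complement, interferon and cell cycle lists are high on the same arrays. Antigen presentation genes are high on saline replicate 3 and MCI-186 replicate 3, while MCI-186 replicate 1 lies near its group's mean. Reactive astrocyte genes are high on saline replicate 3 and MCI-186 replicate 1, and red blood cell genes on MCI-186 replicate 2.

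On the side of genes higher where neuronal transcript was lower, the 5 with the highest correlation were Mlc1 (a membrane protein of astrocyte endfeet), Isoc2b, Clu (clusterin, a secreted chaperone made by astrocytes), Gm2a (the activator protein of ganglioside breakdown in lysosomes) and Snx24 (a sorting nexin). Clu read 6.79, 7.08 and 7.41 in saline replicates 1, 2 and 3 and 7.36, 6.74 and 7.33 in MCI-186 replicates 1, 2 and 3, against 4.98 to 5.33 in controls, a slope of 0.90 ± 0.14. Mlc1 had a slope of 0.38 ± 0.14 and its further probe one of 0.67. Pearson's r ran from 0.998 to 0.999 over the 5 genes and 6 arrays, each with rho = 1 and an exact permutation p of 0.0278 for r and rho. Without the 2 arrays of most extreme score r lay between 0.990 and 0.999. Gm2a was the exception against controls: its injured values of -0.93 to -0.23 overlapped the control range of -1.20 to -0.49, and the injury effect of 0.28 ± 0.19 did not pass the limma threshold (adjusted p = 0.20).

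By limma's p the 10 leading positive slopes, all with an adjusted p of 0.0676 (limma, n = 6 arrays), included S100a6 and Anxa1, calcium-dependent proteins that reactive astrocytes and myeloid cells carry. S100a6 read 3.24, 3.49 and 4.21 with saline and 4.28, 2.99 and 4.10 with MCI-186, against -0.58 to 0.05 in controls (slope 1.62 ± 0.18). Anxa1 read 3.26, 3.81 and 4.44 and then 4.16, 3.28 and 4.12, against 0.27 to 0.76 (slope 1.46 ± 0.17), and its further probe gave 1.46. Others were Capn3, a calpain protease (1.37 ± 0.15), Mfap5, a protein of matrix microfibrils (1.70 ± 0.19), and Bdh2, a dehydrogenase (1.32 ± 0.15). Also among them were Cyp2d5, a cytochrome P450 (1.63 ± 0.19), Fcna, a ficolin that starts the lectin pathway of complement (1.45 ± 0.17), Itih1, a hyaluronan-binding protein not well above background in controls (1.39 ± 0.15), and Zfp217, which lay near background and whose further probe had a slope of 0.24.

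The complement and Fc receptor genes of the list were all on the positive side. Of 17 genes, 16 were at an unadjusted p under 0.05 with a positive slope, against 19.7% of all genes (median 1.08; 0.82 in saline and 1.40 in MCI-186 arrays). With the controls in the fit 13 passed the adjusted threshold. All 17 were higher in injured than in control cortex past limma's adjusted threshold, where 30.1% of all genes were higher and 39.5% lower. Cfb, the serine protease of the alternative pathway, read 3.27, 3.79 and 4.21 in saline replicates 1, 2 and 3 and 4.42, 2.67 and 3.93 in MCI-186 replicates 1, 2 and 3, against -1.29 to -0.91 in controls (slope 1.87 ± 0.28). C1s, the protease of the classical pathway, had a slope of 1.49 ± 0.23, the initiating subunits C1qa, C1qb and C1qc of 1.28, 0.91 and 1.36, and the central component C3 of 0.98 ± 0.16. C5ar1, the receptor for the C5a fragment, had a slope of 1.20 ± 0.18, and the inhibitor Serping1 of 1.27. C4bpa, a chain of the complement regulator C4b-binding protein, is outside the list and went the other way (-1.60 ± 0.20).

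Microglial and macrophage genes lay on the same side, apart from a few members. Of 17 homeostatic and pan-myeloid genes 14 were at an unadjusted p under 0.05 with a positive slope (median 0.80, or 0.50 without MCI-186 replicate 2). Trem2, a lipid receptor of microglia, read 5.03, 5.03 and 5.57 with saline and 5.48, 4.63 and 5.60 with MCI-186 (slope 1.09 ± 0.23). Tyrobp, its signalling adaptor, had a slope of 0.99 ± 0.18 and Aif1 (Iba1) of 0.89 ± 0.18. The microglial purinergic receptor P2ry12 was at 0.88 and the homeostatic marker Tmem119 at -0.41. Among 22 phagocytic genes 14 were at that threshold with a positive slope and 1 with a negative one (median 0.74). The tetraspanin Cd63 had a slope of 1.08 ± 0.17, the mannose receptor Mrc1 of 1.32 ± 0.24, the heme oxygenase Hmox1 of 0.87 ± 0.16 and the lysosomal marker Cd68 of 1.22. Apoe was at 0.20 and the scavenger receptor Cd36 at -0.99. Over the 5 myeloid, complement, antigen presentation and interferon lists, 88 of 90 genes had a positive slope, against 52.8% of all genes. Cd36 and Tmem119 were the exceptions. At an unadjusted limma p under 0.05 there were 67 with a positive slope, against 19.7% of all genes, and 1 with a negative slope. These lists too were compiled with earlier results of these data known, so the counts are a description.

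Of 14 antigen presentation genes 9 were at an unadjusted p under 0.05 with a positive slope (median 0.74). The immunoproteasome and peptide transport genes had the highest slopes of the list, with Psmb9 at 1.35 ± 0.26, Tap2 at 1.35, Psmb8 at 1.21 and Tap1 at 1.09 ± 0.27. The 4 smallest slopes were those of the class I gene RT1-CE5 (0.41) and of Cd74, RT1-Da and RT1-Db1 of the class II pathway (0.42, 0.42 and 0.44). RT1-DMa, the class II peptide loader, was above the list median at 0.93 ± 0.20. Probes of RT1 genes can share sequence between paralogs, so single RT1 values are uncertain.

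All 20 interferon response genes had a positive slope and 14 were at an unadjusted p under 0.05 (median 1.02; 0.75 in saline and 1.36 in MCI-186 arrays; 1.62 without saline replicate 1). The list mean was 1.78, 1.27 and 2.25 in saline replicates 1, 2 and 3, so that replicate 2 and not replicate 1 was lowest, and 2.03, 1.23 and 2.11 with MCI-186, against -2.80 to -2.10 in controls. Gbp2, an interferon-induced GTPase, read 4.21, 4.01 and 4.87 with saline and 4.64, 3.65 and 4.82 with MCI-186 (slope 1.32 ± 0.31). Stat2 and Irf9, subunits of the interferon-activated transcription factor, had slopes of 0.86 ± 0.21 and 0.82 ± 0.22, and Cxcl10, an interferon-induced chemokine, one of 0.68.

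Promoters of this list and of the cell cycle list were picked for printing after the motif counts were seen. The core of the interferon-stimulated response element, GAAA followed after any pair of bases by GAAA, was searched on both strands of the 250 bases before each RefSeq gene start (build GRCr8). It stood in 13 of the 18 list members that have a promoter entry (72.2%) and in 992 of 27457 genes of the table (3.61%). The 3 matching members with the lowest limma p are printed 5′ to 3′ on the strand of the gene, with the matched bases in capitals. Gbp2 lies at chr2:234005477-234005726 on the plus strand, Ifi44 (slope 1.02) at chr2:243303841-243304090 on the minus strand and Ifih1 (a sensor of viral RNA, slope 0.78) at chr3:67683969-67684218 on the minus strand.
Gbp2: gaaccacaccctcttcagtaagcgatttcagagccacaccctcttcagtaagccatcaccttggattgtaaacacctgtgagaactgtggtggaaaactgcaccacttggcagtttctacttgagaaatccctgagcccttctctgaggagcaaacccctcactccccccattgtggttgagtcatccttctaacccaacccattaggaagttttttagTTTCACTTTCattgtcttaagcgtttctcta
Ifi44: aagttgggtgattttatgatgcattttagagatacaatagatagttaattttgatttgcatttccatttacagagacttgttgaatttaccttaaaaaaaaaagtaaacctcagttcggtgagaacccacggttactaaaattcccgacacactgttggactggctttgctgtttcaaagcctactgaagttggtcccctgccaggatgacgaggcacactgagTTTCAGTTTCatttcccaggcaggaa
Ifih1: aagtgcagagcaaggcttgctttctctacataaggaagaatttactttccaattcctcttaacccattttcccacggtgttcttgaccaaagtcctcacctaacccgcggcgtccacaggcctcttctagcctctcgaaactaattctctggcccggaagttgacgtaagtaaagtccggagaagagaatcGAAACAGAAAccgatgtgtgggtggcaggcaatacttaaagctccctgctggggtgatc
The match ends 21 bases before the start of Gbp2, 16 before that of Ifi44 and 49 before that of Ifih1. A match is a description of these letters and not a measured binding site.

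Of 17 cell cycle genes 16 were at an unadjusted p under 0.05 with a positive slope and 1, Ccne1 (cyclin E1, slope -0.50), with a negative one. The median was 1.05, and with the controls in the fit 14 passed the adjusted threshold with a positive slope. Cdk1, the kinase that starts mitosis, read 1.31, 1.36 and 2.16 with saline and 2.04, 1.01 and 1.84 with MCI-186, against -0.21 to 0.10 in controls (slope 1.33 ± 0.21). Aurkb, a mitotic kinase, had a slope of 2.04, Rrm2, which makes deoxynucleotides, of 1.44 ± 0.25 and Birc5 (survivin) of 1.15 ± 0.20. In the whole tissue the dividing cell type is not known from these arrays.

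The E2F site TTTCGCGC, searched in the same way, stood in 5 of 17 cell cycle members with a promoter entry (29.4%) and in 76 of 27457 genes (0.277%). The 2 tested members of the 5 with the lowest limma p, Cdk1 at chr20:19265043-19265292 on the plus strand and Mcm6 (a helicase subunit of DNA replication, slope 0.78) at chr13:42404353-42404602 on the minus strand, are printed with the match in capitals, which ends 125 and 127 bases before the start.
Cdk1: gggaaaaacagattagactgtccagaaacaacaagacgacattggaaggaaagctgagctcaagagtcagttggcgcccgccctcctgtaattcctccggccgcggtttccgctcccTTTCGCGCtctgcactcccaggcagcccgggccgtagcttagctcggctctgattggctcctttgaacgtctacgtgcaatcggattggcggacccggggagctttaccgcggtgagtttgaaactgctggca
Mcm6: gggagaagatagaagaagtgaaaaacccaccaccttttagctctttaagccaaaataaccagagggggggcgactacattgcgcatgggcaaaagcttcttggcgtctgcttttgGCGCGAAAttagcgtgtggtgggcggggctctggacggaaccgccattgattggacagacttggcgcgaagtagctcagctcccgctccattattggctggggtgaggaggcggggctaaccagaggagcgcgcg
In Mcm6 the match is on the opposite strand. The CRE TGACGTCA stood in 4 of 16 activity-regulated members (25%) and in 1.79% of the table; the members were Dusp1, Ier2, Btg2 and Vgf. Arc has no entry in the promoter table. Of the 8 motifs searched, the other 5 were the CHR TTTGAA in 41.2% of cell cycle members (17.2% of the table), the CCAAT box ATTGG in 70.6% of them (36.1%), the CLEAR box TCACGTGA in 5.3% of phagocytic members (0.776%), the PU.1 site GAGGAAGT in 16.7% of pan-myeloid members (2.2%) and the serum response element in 6.2% of activity-regulated members (0.036%). ATTGG and TTTGAA are short and common. For the serum response element an exact run of 10 bases was searched, so variants of it were not counted.

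Reactive astrocyte genes had a positive slope in 19 of 19 cases, 13 of them at an unadjusted p under 0.05 (median 1.02). Vim, the intermediate filament vimentin, read 5.29, 5.63 and 6.06 with saline and 6.25, 5.12 and 6.22 with MCI-186, against 2.78 to 2.99 in controls (slope 1.41 ± 0.19). Gfap, the astrocyte filament, had a slope of 0.98 and Cp (ceruloplasmin, which oxidises iron) of 1.44 ± 0.19. Genes of resting astrocytes were divided: of 19, 5 were at that threshold with a positive slope and 3 with a negative one (median 0.33). The gap junction genes Gjb2 and Gjb6 had slopes of 0.78 ± 0.19 and 0.90 ± 0.25. The glutamate transporter Slc1a2 and the thyroid hormone transporter Slco1c1 were at -0.55 ± 0.16 and -0.54 ± 0.15. Of 10 oligodendrocyte progenitor genes all had a positive slope and 4 were at that threshold (median 0.42, or 0.21 without MCI-186 replicate 2), with C1ql1 at 0.70 ± 0.14.

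Genes of ventricle lining and connective tissue also lay on the positive side. Of 8 choroid plexus and ependyma genes 5 were at an unadjusted p under 0.05 with a positive slope (median 1.25). Foxj1, the master factor of motile cilia, read 2.29, 2.98 and 3.56 with saline and 3.08, 2.36 and 3.24 with MCI-186, against -1.66 to -0.86 in controls (slope 1.44 ± 0.23). Folr1, the folate receptor of choroid plexus, had a slope of 2.00 ± 0.32, while the choroid channels Kcne2 and Aqp1 were at -0.15 and -0.06. The list mean was -1.67, -1.35 and -0.80 in injured saline and -1.07, -1.69 and -1.02 in injured MCI-186 arrays, and -3.92 to -3.14 in controls. What part such tissue has in the other slopes was not tested. Of 17 mural cell and fibroblast genes 7 were at that threshold (median 0.45, or 0.21 without saline replicate 1), with Col1a1, the main chain of fibrillar collagen, at 1.06 ± 0.18. Of 13 matrix protease and inhibitor genes 7 were at it (median 0.75), with Timp1 at 1.29 ± 0.18. Endothelial genes had a median of -0.02, with 4 positive and 1 negative of 18 at that threshold. Plvap, of fenestrated vessels, was at 1.28 ± 0.30 and Mfsd2a, of the closed barrier, at -0.80 ± 0.23.

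Chemokines and cytokines were higher in injured cortex for 23 of 25 genes past limma's adjusted threshold. Of all genes, 30.1% were higher and 39.5% lower at that threshold. Several list members, Ccl12, Cxcl1 and Ccl20 among them, passed the filter on dim probes only through the injured groups. The count is therefore a description. Of the 25, 6 were at an unadjusted p under 0.05 with a positive slope, against 19.7% of all genes (median 0.47; 0.94 in saline and 0.20 in MCI-186 arrays). That median was 0.05 without saline replicate 3, 0.89 without MCI-186 replicate 2 and -0.23 with the replicate number as a block. Ccl12, a ligand of monocyte recruitment, was not well above background in any control and read -0.66, -1.55 and 0.32 in injured saline and -0.94, 0.08 and -0.46 in injured MCI-186 replicates 1, 2 and 3, a slope of 0.03 ± 0.86. Its highest saline array was the one with the lowest score and its highest MCI-186 array the one with the highest score. Cxcl1, a neutrophil attractant, had a slope of 1.29 in saline and -0.70 in MCI-186 arrays, Ccl7 of 1.95 and -0.70 and Ccl20 of 2.00 and -1.94. Limma's test of the difference between treatments passed the adjusted threshold for none of them, and an unadjusted p of 0.05 for Ccl20 alone among these 3. Il1b, the inflammatory cytokine, was at -0.02, with slopes of 1.19 in saline and -0.996 in MCI-186 arrays. Ccl2 was at 0.48, with 1.66 and -0.47, and Cxcl2 had 1.11 and -0.62. In limma's test of the difference between treatments the unadjusted p was 0.0066 for Il1b and 0.0496 for Cxcl2. Neither passed the adjusted threshold. The receptor Ccr1 of myeloid cells was at 1.62 ± 0.34.

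Neutrophil genes had slopes of either sign by treatment. All 7 had a positive slope in saline arrays, and S100a8, S100a9, Camp and Mmp9 had a negative one in MCI-186 arrays, where limma's test of the difference between treatments passed the adjusted threshold for none of the 7 and an unadjusted p of 0.05 for 4 (Padi4, S100a9, Camp and Mmp9). The list mean was -3.17, -3.04 and -1.22 in injured saline replicates 1, 2 and 3 and -3.00, -2.97 and -2.81 in injured MCI-186. The median slope of 1.39 became -0.62 without injured saline replicate 3 and 2.89 without MCI-186 replicate 2. Lcn2, a siderophore-binding protein of neutrophils and reactive astrocytes, had the lowest p of the list and read 1.70, 3.31 and 3.21 with saline and 3.61, 1.86 and 2.61 with MCI-186. Its slope of 2.02 ± 0.57 was 2.06 in saline and 1.98 in MCI-186 arrays. Padi4, an arginine deiminase, and Csf3r, the receptor for G-CSF, had slopes of 0.74 and 0.57 in MCI-186 arrays. S100a9, a subunit of calprotectin, read -3.62, -4.09 and -1.01 with saline and -3.99, -3.30 and -3.41 with MCI-186, a slope of 1.39 ± 1.23 that turned to -0.78 without that array. T cell and NK cell genes had 3 positive and 1 negative of 9 at an unadjusted p under 0.05 and a median of 0.47, which became -0.04 without injured saline replicate 3. Only 5 of the 9 had the same sign in each treatment group alone. Cd4 and Cd8b, co-receptors of T cells, were among the 3 positive ones, at 0.89 ± 0.32 and 1.26 ± 0.36. The negative one was at -0.65, the lowest slope of the list. Cd4 was not well above background in any control, and its slope was 0.25 in saline and 1.40 in MCI-186 arrays.

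Cell death and p53 genes were at an unadjusted p under 0.05 with a positive slope in 11 of 24 cases and antioxidant genes in 9 of 20 (medians 0.43 and 0.38). Fas, the death receptor, had a slope of 1.06 ± 0.15, the inflammatory caspase Casp4 of 0.95 ± 0.21, Nqo1, a quinone reductase, of 0.91 ± 0.16 and Gpx3, a secreted glutathione peroxidase, of 1.72 ± 0.39. Heat shock genes had 3 positive and 1 negative of 12 at that threshold (median 0.16), with the small chaperone Hspb8 at 1.10 ± 0.20 and the large Hsph1 at -0.89 ± 0.23. Of 14 genes of endoplasmic reticulum stress 3 were at it with a positive slope (median 0.13), among them Atf3 at 1.06 ± 0.25. Glycolysis and hypoxia genes were divided, 5 positive and 3 negative of 22 (median -0.14). Slc2a3, the neuronal glucose transporter, was at -0.80 ± 0.19 and Hk2, a hexokinase, at 0.74 ± 0.18. Of 25 respiratory chain genes 1 was at that threshold, Ndufs1 of complex I at -0.57 ± 0.18. All 25 were lower in injured cortex past limma's adjusted threshold, against 39.5% of all genes. Cytosolic ribosome genes had a small positive slope in 24 of 24 cases, 10 at that threshold (median 0.43; range 0.16 to 0.67). The 12 reference genes had a median slope of 0.02, with list means of 3.63 to 3.74 on the injured arrays. Gusb, a lysosomal enzyme used as a reference gene, was at 0.90 ± 0.20.

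The slope is taken within the injured groups and the injury effect between group means, so a gene may have either without the other. Across genes, which are not independent replicates and here share the injured arrays, slope and injury effect correlated with r = 0.74, and with r = 0.76 over the 8547 genes well above background on all 12 arrays. Of 216 genes higher by at least 3 log2 units in injured cortex past limma's adjusted threshold, 214 had a positive slope (99.1%), against 52.8% of all genes. Of 1084 genes higher by 1 to 3 units 1067 did (98.4%). The median slope was 1.16 in the first class and 0.88 in the second. Of 384 genes lower by at least 1 unit 19 had a positive slope (4.95%; median -0.95), and of the remaining 7590 genes 47.4%. The size of the slope did not follow the size of the injury effect in every gene. C3 had an injury effect of 6.55 ± 0.21 (SE, n = 12 arrays) and a slope of 0.98 ± 0.16, while Snap25 had an injury effect of -0.93 ± 0.16 and a slope of -1.10 ± 0.18. The score itself was at -1.21 log2 units in injured minus control cortex.

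**Figure D5:**
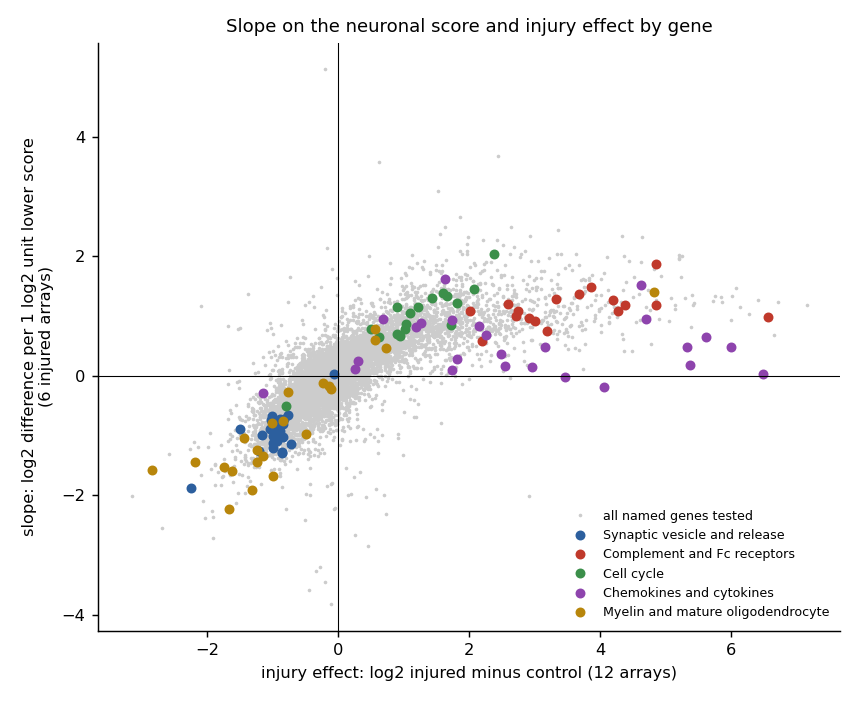
Slope on the neuronal score over the 6 injured arrays (y axis, log2 difference per 1 log2 unit lower score) against the injury effect over 12 arrays (x axis, log2 injured minus control) for 9274 named genes (grey) and 5 lists (coloured). Synaptic vesicle genes lie low on both axes, complement genes high on both, and several chemokines such as Ccl12 have a high injury effect with a slope near 0.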

How the data were processed

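Gene expression was measured on 1-colour Agilent arrays (Cy3) in 12 samples, 3 in each of 4 groups. Deposited scanner files give processed intensity per spot, which per the file headers came from version 9.5.3.1 of Agilent's Feature Extraction software. A second deposited table, on a log2 scale, served as an alternative. Its columns matched the log2 scanner values once each probe was centred on its median over the 12 arrays, with r from 0.999768 to 0.999948 over 25240 probes. Of 41011 probes 15183 had a gene name.

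Signals were divided by each array's 75th percentile, floored at 0.005 of it and taken to log2; the brightest probe stood for a gene, and further probes are given for some genes. Slopes on the neuronal score were fitted with limma 3.58.1 in R 4.3.3 (lmFit, eBayes; 3 residual and 2.763 prior degrees of freedom) over 6 injured arrays with treatment as a term, and adjusted by Benjamini-Hochberg over 9274 named genes and 16610 unnamed probes. Probes of the score genes were left out. A probe was tested if it was well above background on all 3 arrays of any group, which removed 2924 genes. Genes dim in controls could therefore enter through the injured groups. The fit was tested on simulated data. The number of arrays limits the precision.

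Genes named were the 10 lowest p in each direction (none passed the threshold), up to 4 lowest p in each list, the 5 highest and 5 lowest r, and up to 6 with a large injury effect and no slope; other list members are examples of a list's range. Some genes that this rule would name, or that the lists hold, are counted but not reported here by name. The 38 lists and the members of the score were chosen with earlier results of these data known. The planned normexp alternative used the median signal, since the files hold no mean signal. Other alternatives changed normalization, filter, probe choice, score genes, arrays in the fit and arrays left out. Promoter sequences are those of RefSeq (GRCr8).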

Additional observations from a re-analysis of the deposited data

How the results depend on the processing

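No gene passed limma's adjusted threshold of 0.05 on the 6 injured arrays, and 1825 positive and 1241 negative slopes were at an unadjusted p under 0.05. Counts of 0 in both directions at the adjusted threshold also came from quantile normalization, the deposited value table, the stricter filter, the mean of all probes, each score gene left out, the replicate block and each array left out (0 to 0). At an unadjusted p under 0.05 there were then 1740 positive and 1461 negative slopes with quantile normalization, 1728 and 1282 with the deposited table, 1833 and 1238 with the stricter filter, 1786 and 1276 with the mean of all probes, and 1619 to 1847 and 1056 to 1350 with a score gene left out. Other settings gave calls: 535 positive and 317 negative with normexp, 1250 and 952 with all 12 arrays in the fit, 711 and 660 with a score from 8 other neuronal genes, 728 and 678 with the first principal component as the score, and 1 positive without the filter on dim probes. The score from other neuronal genes and the first principal component are built from genes that are themselves tested. The cause was not tested. Leaving out an array moved the count at an unadjusted p under 0.05 between 787 and 1752 for positive and between 396 and 1461 for negative slopes, the lowest of both without injured MCI-186 replicate 2; there were 1012 and 717 without injured saline replicate 3 and 1384 and 791 without injured saline replicate 1. Among list medians, that of T cell and NK cell genes ran from -0.036 (without injured saline replicate 3) to 0.668 as single arrays were left out, that of hippocampal genes from -0.065 (without injured saline replicate 1) to 0.534 and was -0.355 with the replicate block, and that of heat shock genes was -0.075 with the block. Of 180 named genes, S100a9 had slopes from -0.781 (without injured saline replicate 3) to 3.81 (without injured MCI-186 replicate 2) and -0.203 with the block, and C1ql2 one of -0.184 with the block; no other slope larger than its standard error changed sign in the alternatives run. The labels do not say whether replicate numbers pair the samples. The deviations of same-numbered arrays correlated with r of -0.17, 0.11 and 0.54. These values cannot decide it, since the deviations largely follow the score of each array. With the replicate block 1002 positive and 507 negative slopes were at an unadjusted p under 0.05, and the median of chemokine genes was -0.23.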
